A study of Mus musculus with 28 samples.

Results

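The dopamine receptors are encoded by 5 genes of the mouse, *Drd1*, *Drd2*, *Drd3*, *Drd4* and *Drd5*, which were taken by symbol from the 55450 genes of the GENCODE annotation. At each of them the H3K4me3 peaks and H3K27me3 islands of striatal A2a and D1 nuclei were read at the promoter, along the gene and over 50 kb on either side. The nuclei came from medium spiny neurons (MSNs) of C57BL/6J mice with the R26-CAG-LSL-Sun1-sfGFP allele, which gives a nuclear tag only in cells with Cre recombinase. In Sun1-sfGFP;A2a-cre mice the tag marked A2a MSNs, which express *Drd2* and *Adora2a*, and in Sun1-sfGFP;Drd1-cre mice it marked D1 MSNs, which express *Drd1*. Tagged nuclei were purified from the striatum of a single mouse of either sex (INTACT) and profiled by CUT&RUN (CnR), in which an antibody guides a nuclease to the marked nucleosomes. The mice were about 8 weeks old per the study's reporting summary, and each library held the nuclei of 1 animal.

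Dopamine receptors are G protein-coupled receptors. The D1-like receptors, encoded by *Drd1* and *Drd5*, act through Gs and Golf and raise cyclic AMP, and the D2-like receptors, encoded by *Drd2*, *Drd3* and *Drd4*, act through Gi and Go and lower it. In the striatum the D1 and D2 receptors divide the MSNs into the direct and the indirect pathway. H3K4me3 is a histone mark of promoters that are active or ready for use, and H3K27me3 is the mark that Polycomb repressive complex 2 places on silenced genes, often over long domains.

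The 5 genes fell into 4 arrangements of the marks. *Drd1* and *Drd2* carried H3K4me3 in both cell types, and each was widely covered by H3K27me3 only in the list of the MSNs that are not known for that receptor. *Drd3* carried H3K4me3 and no H3K27me3 in either list. *Drd4* carried short stretches of both marks in either list. *Drd5* lay in both lists within one of the longest H3K27me3 domains and carried no H3K4me3.

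The series has 28 samples, and the 4 lists read here pool 8 of them, 2 replicates for each cell type and mark. No value therefore has an error between mice and no difference was tested across mice, and the intervals given cover counting error only. The lists held 22551 H3K4me3 peaks and 60191 H3K27me3 islands in A2a, and 20080 peaks and 45760 islands in D1. The islands held 22091634 reads in A2a and 7878685 in D1, on average 73.4 and 42.8 per kb of island. Reads at a gene are therefore read beside the A2a share of all island reads, 73.7%. The labels of the D1 H3K27me3 samples conflict, since their source name reads A2a while title and cell type read D1, and they were taken as D1. The *Adora2a* and *Gpr6* promoters held no H3K27me3 island in A2a and islands of 45.0 and 21.8 kb in D1, while that of *Penk*, another A2a marker, held islands of 3.4 kb in A2a and 23.8 kb in D1. The promoters of the D1 markers *Tac1*, *Pdyn* and *Isl1* held islands of 31.2 to 61.0 kb in A2a and of 1.0 to 5.80 kb in D1. A promoter H3K4me3 peak was found at 58.2% of all coding genes in A2a and 55.7% in D1. In each list 2 of 3 neuron markers and 4 of 5 markers of both kinds of MSN had one. Of markers of other cells, 4 of 5 oligodendrocyte genes and 1 of 4 astrocyte genes had one in each list. For microglia 1 of 4 genes had one in A2a and 0 in D1, and 0 of 3 endothelial and 0 of 4 interneuron genes had one in either. Among the oligodendrocyte genes, *Olig1* and *Olig2* also held islands in both lists. The peak of *Mog* was in A2a only and that of *Mag* in D1 only. By −log10 q they were at percentiles 23.0 and 2.75 of their lists, and that of *Mbp* was at 88.1 in A2a and 80.7 in D1. Each gene was read at a single annotated 5′ end. By this rule the neuron marker *Rbfox3* and the MSN marker *Gad1* had no peak in either list. Promoter peaks at 4 Y-linked genes were found in D1 and at 0 of them in A2a, while *Xist* had one in A2a only, so cell type and sex of the mice cannot be told apart in the H3K4me3 lists. The part of these other cells and of sex in the values of the receptor genes was not tested.

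The sequences around the start sites are shown because the marks met them differently. Each run of 300 bases goes from 250 before to 50 after an annotated start, 5′ to 3′ on the strand of the gene, with each CpG dinucleotide in capitals. They come from the RefSeq promoter table on GRCm38.p6, except the upstream *Drd3* start, which was read from the genome of the same build. For *Drd1* only the RefSeq start near the annotated 5′ end of the gene was taken, so any other is not shown. The *Drd1* sequence (chr13:54055609-54055908, minus strand) and the *Drd2* sequence (chr9:49340153-49340452, plus strand) each held 23 CpG.

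Drd1: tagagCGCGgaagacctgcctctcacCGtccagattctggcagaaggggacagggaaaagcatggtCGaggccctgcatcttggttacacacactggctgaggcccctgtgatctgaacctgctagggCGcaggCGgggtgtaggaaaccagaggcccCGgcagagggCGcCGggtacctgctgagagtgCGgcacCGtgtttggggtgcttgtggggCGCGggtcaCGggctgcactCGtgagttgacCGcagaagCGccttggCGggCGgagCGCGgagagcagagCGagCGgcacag
Drd2: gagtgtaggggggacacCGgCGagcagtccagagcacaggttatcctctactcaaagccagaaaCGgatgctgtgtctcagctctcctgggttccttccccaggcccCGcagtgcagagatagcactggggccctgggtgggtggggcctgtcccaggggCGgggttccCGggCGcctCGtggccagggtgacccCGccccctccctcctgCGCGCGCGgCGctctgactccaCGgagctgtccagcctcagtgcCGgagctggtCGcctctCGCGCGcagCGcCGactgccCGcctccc

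The *Drd3* gene has 2 annotated starts, and H3K4me3 was found at the first, that of GENCODE (chr16:43753776-43754075, plus strand, 7 CpG), and not at the second, that of RefSeq (chr16:43761971-43762270, 2 CpG).

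Drd3 upstream start: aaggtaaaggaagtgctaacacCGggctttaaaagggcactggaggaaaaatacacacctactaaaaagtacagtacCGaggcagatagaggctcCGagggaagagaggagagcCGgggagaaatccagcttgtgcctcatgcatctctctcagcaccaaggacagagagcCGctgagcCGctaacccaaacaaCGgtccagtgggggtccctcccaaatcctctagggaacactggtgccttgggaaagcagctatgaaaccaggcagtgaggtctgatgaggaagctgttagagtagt
Drd3 RefSeq start: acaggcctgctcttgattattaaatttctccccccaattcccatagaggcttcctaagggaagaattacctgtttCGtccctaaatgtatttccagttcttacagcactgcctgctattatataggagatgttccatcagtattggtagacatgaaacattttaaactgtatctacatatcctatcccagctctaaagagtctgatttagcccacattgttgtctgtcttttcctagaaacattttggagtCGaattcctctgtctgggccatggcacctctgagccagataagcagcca

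The *Drd4* sequence (chr7:141291768-141292067, plus strand) held 15 CpG and the *Drd5* sequence (chr5:38319259-38319558, plus strand) held 38.

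Drd4: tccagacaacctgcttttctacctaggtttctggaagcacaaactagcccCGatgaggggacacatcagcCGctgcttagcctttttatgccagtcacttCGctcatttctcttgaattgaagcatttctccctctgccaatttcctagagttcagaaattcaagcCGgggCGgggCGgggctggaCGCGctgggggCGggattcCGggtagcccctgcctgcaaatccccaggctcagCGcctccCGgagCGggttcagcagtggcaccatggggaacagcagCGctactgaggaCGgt
Drd5: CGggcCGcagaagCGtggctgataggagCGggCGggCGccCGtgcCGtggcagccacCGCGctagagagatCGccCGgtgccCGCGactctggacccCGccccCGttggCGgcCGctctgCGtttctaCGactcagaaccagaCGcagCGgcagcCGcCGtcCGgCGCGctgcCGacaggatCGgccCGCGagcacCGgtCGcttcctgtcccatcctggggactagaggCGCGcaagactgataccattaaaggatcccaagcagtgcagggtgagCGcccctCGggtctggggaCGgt

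The ratio of observed to expected CpG, which is high where CpG has not been lost to methylation, had a median of 0.384 over the 32851 promoters of the table. It was 1.02 in *Drd5*, at percentile 95.3 of these promoters, 0.740 in *Drd1* (percentile 74.1), 0.621 in *Drd2* (65.6) and 0.595 in *Drd4* (63.9). The upstream *Drd3* start had a ratio of 0.342 (percentile 46.3) and the RefSeq start one of 0.156 (percentile 21.9). The most CpG-rich of the 6 sequences was thus one without H3K4me3. All 300 bases of the *Drd5* and *Drd1* sequences lay inside H3K27me3 islands in both lists and 0 bases inside an H3K4me3 peak. The *Drd2* sequence lay inside an island over 248 bases in A2a and 300 in D1 and also outside the peaks. The upstream *Drd3* sequence lay wholly inside an H3K4me3 peak in both lists, and the RefSeq one in no peak or island. The *Drd4* sequence lay inside peaks over 300 bases in A2a and 255 in D1 and wholly inside islands in both. Searched on both strands, the cAMP response element TGACGTCA was in 0 of the 6 sequences and in 1.79% of all promoters. The GC box GGGCGG was found 3 times in *Drd4*, 2 times in *Drd2*, 2 times in *Drd5*, once in *Drd1* and in neither *Drd3* sequence, and 35.7% of all promoters held it. Over the whole promoter window, defined next, the ratio was 0.399 in *Drd1*, 0.551 in *Drd2*, 0.268 in *Drd3*, 0.368 in *Drd4* and 0.503 in *Drd5*. The 10420 coding genes with H3K4me3 alone in both lists had a median of 0.536, the 1143 with both marks one of 0.517 and the 1663 with H3K27me3 alone one of 0.289. *Drd3*, with H3K4me3 alone, was thus below the median of its class and *Drd5*, with H3K27me3 alone, above that of its class. Of the genes with both marks, *Drd1* and *Drd4* were below the median of their class and *Drd2* above it.

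To ask which receptor genes carried each mark, the promoter was taken as the window from 2 kb upstream to 1 kb downstream of the transcription start site (TSS), the annotated 5′ end of the gene, with an overlap of at least 1 bp. H3K4me3 peaks met the promoters of *Drd1*, *Drd2*, *Drd3* and *Drd4* in both lists, 4 of 5 genes, where 58.2% of the 21938 protein-coding genes had one in A2a and 55.7% in D1. H3K27me3 islands met the promoters of *Drd1*, *Drd2*, *Drd4* and *Drd5* in both lists, again 4 of 5, against 21.7% of protein-coding genes in A2a and 15.3% in D1. Both marks were found at *Drd1*, *Drd2* and *Drd4* in both lists, 3 of 5, against 9.54% and 5.57%. The promoter window lay wholly inside islands at *Drd1* and *Drd5* in A2a, 2 of 5 against 10.2%, and at *Drd2* and *Drd5* in D1, 2 of 5 against 6.02%. With 5 genes, each gene is 1 step of these shares, and 3 of the calls were near the thresholds. The *Drd1* peak was lost in A2a when only as many of its strongest peaks were kept as the D1 list held, and the *Drd4* peak was lost in D1 at a −log10 q of at least 5. The *Drd1* island in D1 was lost when islands had to be at least 2000 bp long.

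**Figure D1:**
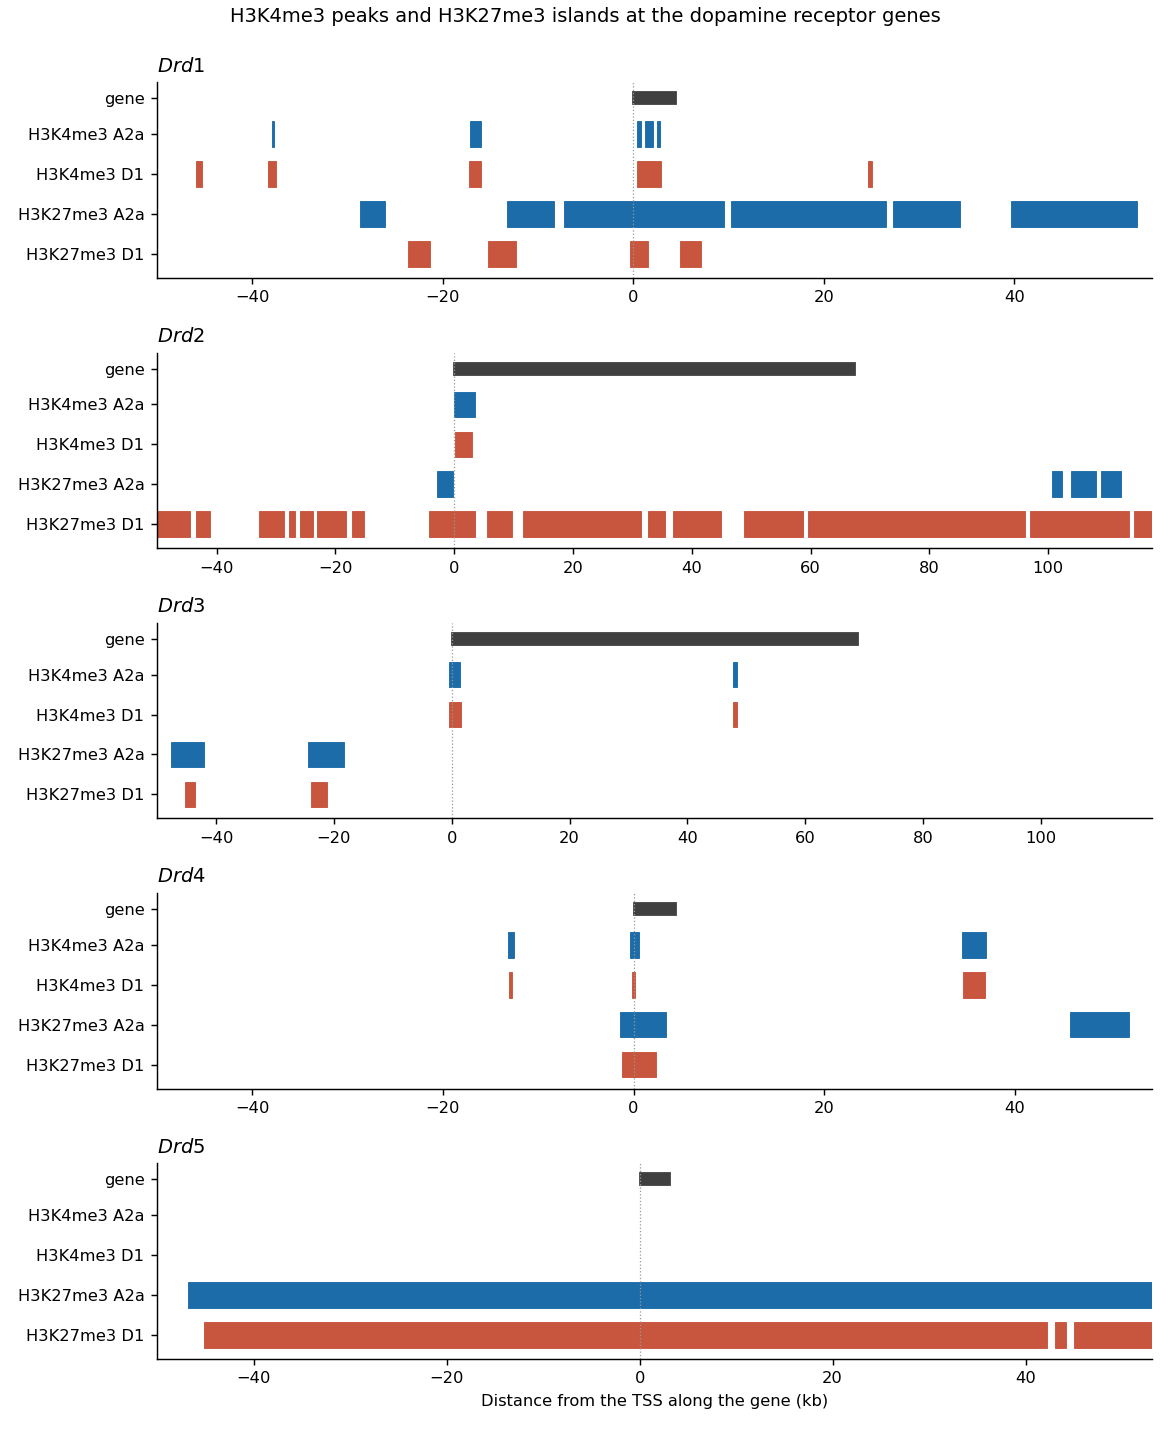
Positions of H3K4me3 peaks and H3K27me3 islands in A2a (blue) and D1 (red) from 50 kb upstream to 50 kb downstream of each receptor gene, by distance from the TSS in kb along the gene (dark bar). Islands cover 58.2% of the *Drd1* region in A2a and 8.99% in D1, 7.04% and 78.5% of the *Drd2* region, and 96.9% and 93.8% of the *Drd5* region.

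*Drd1* (chr13:54051183-54055705, minus strand, ENSMUSG00000021478.6) encodes the main receptor of the direct pathway. In A2a the island at its promoter was 16.8 kb long and held 1958 reads (95% Poisson interval 1872 to 2047), and in D1 it was 1.80 kb long with 86 reads (68.8 to 106). The A2a share of these reads was 95.8% (94.8 to 96.6, exact binomial), above the 73.7% of all islands and at percentile 99.4 of the 3132 coding genes with a promoter island in both lists, whose median share was 72.2%. The A2a island was 9.33 times as long as the D1 one, and 1 of the 4 receptor genes with islands in both lists was thus at least 4 times as long in A2a, where 6.48% of such genes were. It was also denser than the mean of its list, at 117 reads per kb (percentile 98.4), while the D1 island held 47.8 reads per kb (percentile 86.1). The D1 island was therefore short, but not sparse for its list.

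The difference at *Drd1* went beyond the promoter. In A2a 6 islands of the gene and the 50 kb around it held 5472 reads, and in D1 4 islands held 348. They covered 100% of the gene, 82.8% of the 50 kb downstream and 29.8% of the 50 kb upstream in A2a, against 33.3%, 4.40% and 11.4% in D1. In A2a the flank on the 3′ side was thus more widely covered than the one on the 5′ side, and in D1 less widely. Joined across gaps of up to 5 kb, 4 islands formed a domain of 47.6 kb in A2a, from 13.3 kb upstream to 34.3 kb downstream of the TSS, with *Drd1* as its only protein-coding gene. In D1 the same step gave 7.40 kb and 175 reads. The covered share of the gene and its flanks was higher in A2a by 49.2 percentage points, and 24 of the 21938 coding genes had a larger difference, led by *Ebf1*, *Tac1* and *Pdyn* (named after their values were seen).

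H3K4me3 at *Drd1* lay downstream of the TSS in both lists, with no base of a peak at the start itself. A further annotated start, that of a processed transcript 925 bp into the gene, lay inside the D1 peak and in no A2a peak. In D1 it was a single peak of 2484 bp with its summit 585 bp into the gene, in an intron. In A2a there were 3 separate peaks of 423, 786 and 319 bp within the same stretch, with summits at 847, 1712 and 2628 bp. The D1 peak had a −log10 q of 35.7 and a fold enrichment of 3.27, and the A2a peaks had −log10 q values of 5.0, 6.43 and 9.24 and fold enrichments of 2.57, 2.75 and 3.11. By −log10 q, the promoter peak was at percentile 43.6 in D1 and 4.04 in A2a. By fold enrichment it ranked at 6.28 in D1 and 2.41 in A2a, low in both lists, so the wide gap by −log10 q depended on the measure. All 3 A2a peaks lay wholly inside the A2a island, whereas 1100 bp (44.3%) of the D1 peak lay inside the D1 island.

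Around *Drd1*, a peak 38.0 kb upstream of the TSS, inside the neighbouring gene *Sfxn1* (a mitochondrial serine carrier), was 830 bp long in D1 with a fold enrichment of 5.75 and 271 bp long in A2a with one of 3.32. Peaks at 24.9 kb downstream (425 bp) and 45.7 kb upstream (551 bp) were in the D1 list only. The promoter peak of *Sfxn1* was in both lists, at percentiles 51.9 in A2a and 49.6 in D1, and its promoter held an island of 3.0 kb with 99 reads in D1 and none in A2a. *Drd1* also names the Cre driver of the D1 mice. The sources used here do not give the place of that transgene, and its part in the *Drd1* values was not tested.

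*Drd5* (chr5:38319367-38322518, plus strand, ENSMUSG00000039358.3) encodes the other D1-like receptor, known from cortex, hippocampus and the cholinergic interneurons of the striatum. It had no H3K4me3 peak in either list within the gene or 50 kb around, and the nearest one lay 56.1 kb outside its promoter window in both. In A2a a single island of 128.8 kb with 18133 reads (17870 to 18399) ran over the gene, rank 6 of all 60191 islands by reads. In D1 the island at the promoter was 87.4 kb long with 6360 reads (6205 to 6518), rank 14 of 45760. Its share of reads in A2a was 74.0% (73.5 to 74.6), next to the 73.7% of all islands and at percentile 58.9 of genes, and its length ratio was 1.47 against a median of 1.40.

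Joined across gaps of up to 5 kb, the D1 islands at *Drd5* made a domain of 125.8 kb with 8066 reads, rank 52 of 28006 by length, where the A2a domain ranked 128 of 33463. They ran from 46.8 kb upstream to 82.0 kb downstream of the TSS in A2a and from 45.2 kb upstream to 80.6 kb downstream in D1. Both overlapped *Otop1*, a proton channel gene, *Drd5*, and *Slc2a9*, a urate transporter gene. The island density was 141 reads per kb in A2a and 72.8 in D1, 1.92 and 1.70 times the mean of the list. *Drd5* thus lay in a domain of nearly the same extent in both lists.

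*Drd2* (chr9:49340627-49408177, plus strand, ENSMUSG00000032259.8) encodes the main receptor of the indirect pathway and the autoreceptor of dopamine neurons. Its promoter island held 160 reads (136 to 187) over 2.60 kb in A2a and 559 (514 to 607) over 7.80 kb in D1. The A2a share was 22.3% (19.3 to 25.5), at percentile 0.223 of genes, so the deviation from the 73.7% of all islands was opposite to that of *Drd1*. The D1 island was 3.0 times as long, and 0 of 4 receptor genes reached 4 times as long in D1, where 0.415% of genes did. The D1 island was also dense for its list, at 71.7 reads per kb (percentile 98.7), and the A2a island was not, at 61.5 reads per kb (percentile 46.3).

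Most of the difference at *Drd2* lay in the gene and beyond it. Islands covered 84.0% of the gene in D1 and 0% in A2a, 96.8% and 18.4% of the 50 kb downstream, and 52.8% and 5.20% of the 50 kb upstream. Within 50 kb of the gene D1 had 16 islands and A2a had 4. The longest in D1 ran for 36.6 kb with 1605 reads across the 3′ end of *Drd2* and over the start of *Ankk1*, a kinase gene next to it, whose promoter had no island in A2a and no H3K4me3 in either list. Joined across gaps of up to 5 kb, 12 D1 islands with 6868 reads made a domain of 154.2 kb, from 4.23 kb upstream to 150 kb downstream of the TSS, over *Drd2*, *Ankk1* and *Ttc12*. It ranked 29 of 28006 by length, above the domain at *Drd5*, while the A2a domain was the promoter island alone. The covered share was lower in A2a by 71.5 percentage points, and 4 coding genes had a more negative difference, *Gpr6*, *Ankk1*, *Grik3* and *Upb1* (named after their values were seen). The windows of *Drd2* and *Ankk1* overlap and share islands.

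H3K4me3 at *Drd2* was a single broad peak in each list, of 3507 bp in A2a and 2921 bp in D1, where the median peak was 1214 and 1170 bp long. The summits lay in an intron, 987 bp and 953 bp downstream of the TSS. By −log10 q, 70.9 in A2a and 30.6 in D1, the peaks ranked at percentiles 53.0 and 41.0. By fold enrichment, 3.51 and 3.98, they ranked at 7.60 and 17.0, so which list gave the higher percentile depended on the measure. In A2a the marks stood side by side, with the island ending 227 bp before the TSS, the peak starting 26 bp after it and 0 bp of the peak inside an island. These distances are from the GENCODE start. The RefSeq start, used for the printed sequence, lies upstream at chr9:49340403, next to the island end at 49340400. In D1 the peak lay wholly inside the island.

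**Figure D2:**
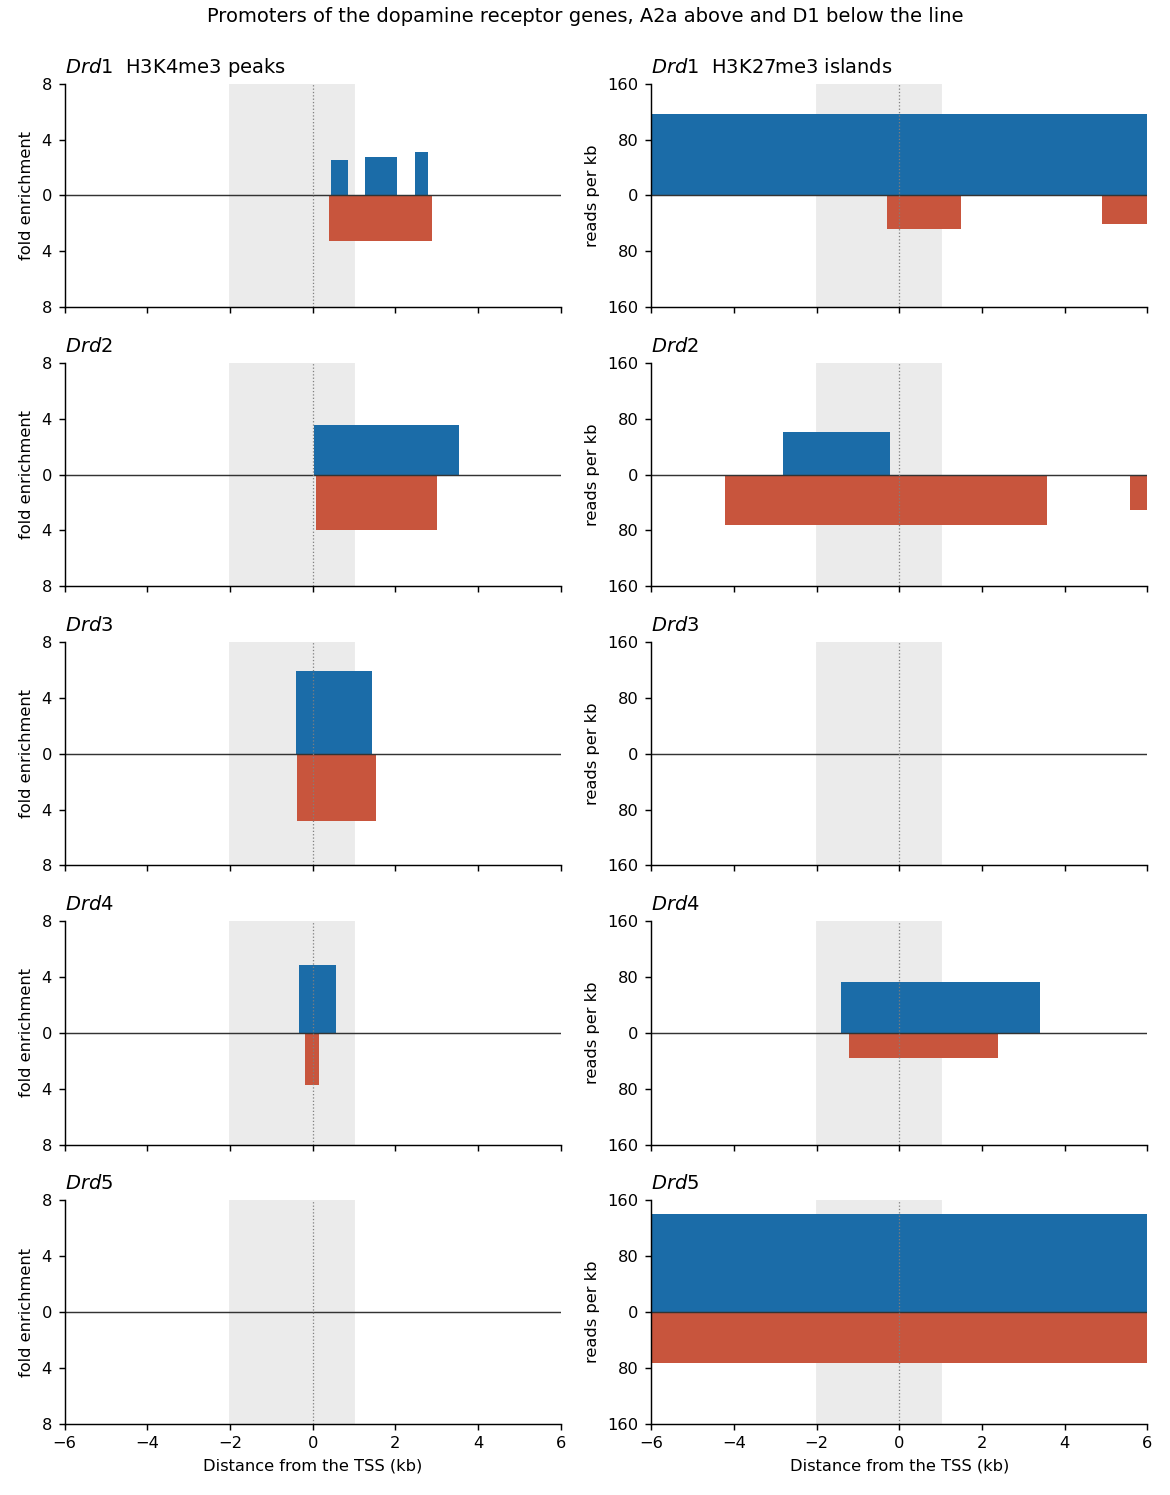
H3K4me3 peaks by fold enrichment (left) and H3K27me3 islands by reads per kb (right) within 6 kb of the TSS, with A2a above and D1 below the line and the promoter window shaded; the values of the lists are not scaled to each other. At *Drd2* the A2a island ends 227 bp upstream of the TSS while the D1 island of 7.80 kb spans the peak, and at *Drd1* the 3 A2a peaks and the single D1 peak start downstream of the TSS.

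*Drd3* (chr16:43754026-43822932, plus strand, ENSMUSG00000022705.5) encodes a D2-like receptor known from the ventral striatum and the islands of Calleja. Its promoter peak was 1848 bp long in A2a and 1905 bp in D1, over the upstream start, with summits 177 and 221 bp downstream of it. The −log10 q values were 35.7 and 25.4 and the fold enrichments 5.92 and 4.85. These gave percentiles of 41.6 and 38.1 by −log10 q, and of 40.8 and 29.7 by fold enrichment. No peak lay at the second start, 8.20 kb into the gene. A further intronic peak of 603 bp in A2a and 604 bp in D1 lay 47.9 and 48.0 kb downstream of the first start, with fold enrichments of 4.69 and 5.18.

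No H3K27me3 island lay in the promoter or gene of *Drd3* in either list, and none in the 50 kb downstream. The nearest islands lay 16.2 kb upstream of the promoter window in A2a, with 331 reads, and 19.2 kb upstream in D1, with 84. Islands covered 23.6% of the upstream 50 kb in A2a and 8.40% in D1, including the one at the start of the noncoding gene *Gm49735*, of 5.60 kb and 1.60 kb. The covered share of gene and flanks, 6.99% and 2.49%, was at percentiles 61.0 and 58.5 of coding genes. *Drd3* was thus the only one of the 5 receptor genes with H3K4me3 and no H3K27me3 at its promoter.

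*Drd4* (chr7:141292006-141296464, plus strand, ENSMUSG00000025496.5) encodes a D2-like receptor known mainly from cortex and retina. Its promoter peak was 907 bp long in A2a and 349 bp in D1, with the summits 59 and 45 bp downstream of the TSS in coding sequence. The −log10 q values, 9.41 and 4.74, ranked at percentiles 17.8 and 6.51, among the weaker peaks of both lists. The island at the promoter was 4.80 kb long with 348 reads (312 to 387) in A2a and 3.6 kb long with 129 reads (108 to 153) in D1. Both peaks lay wholly inside the islands.

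The A2a share of island reads at *Drd4*, 73.0% (68.7 to 76.9), was close to that of all islands and at percentile 53.6 of genes. The length ratio was 1.33, at percentile 46.4. Islands covered 76.1% of the gene in A2a and 53.7% in D1, and 10.5% and 3.45% of the gene with its flanks. The promoters of the neighbours *Sct* (the hormone secretin), *Deaf1* and *Tmem80* had H3K4me3 peaks in both lists and no island, the last pair sharing a peak with percentiles 55.6 in A2a and 76.3 in D1. The promoter of *Eps8l2* held an island of 6.20 kb with 352 reads in A2a only. The H3K27me3 at *Drd4* was thus a short stretch of its own between promoters without it.

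**Figure D3:**
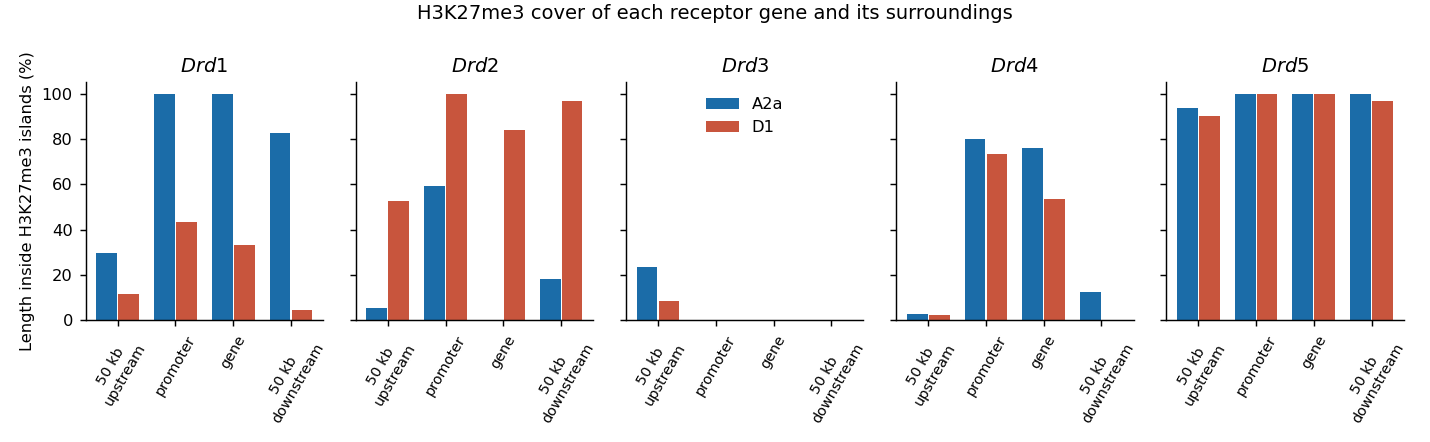
Share of length inside H3K27me3 islands (%) in the 50 kb upstream, the promoter window, the gene and the 50 kb downstream of each receptor gene, for A2a (blue) and D1 (red); no bar means 0%. The gene body is at 100% in A2a and 33.3% in D1 for *Drd1*, at 0% and 84.0% for *Drd2*, at 0% for *Drd3*, and at 100% in both for *Drd5*.

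The 4 genes with promoter islands in both lists were set side by side to compare their balance between the cell types. *Drd1* and *Drd2* stood at opposite ends of the genes with islands in both lists, at percentiles 99.4 and 0.223 of the A2a share. *Drd4* and *Drd5* were at percentiles 53.6 and 58.9, near the 73.7% of all islands. The intervals of the shares cover counting error only and narrow with the number of reads, so their overlap was not used to compare genes. The middle 50% of genes had shares from 67.8 to 78.6%. Since whole islands were counted, the share also follows their length. With reads scaled to the part of each island inside the promoter window, the shares were 85.0% at *Drd1*, 33.7% at *Drd2* and 65.9% at *Drd5*. They were nearer to each other and still with *Drd1* above and *Drd2* below the 73.7%. That 73.7% counts whole islands, so it is not a like reference for scaled reads.

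**Figure D4:**
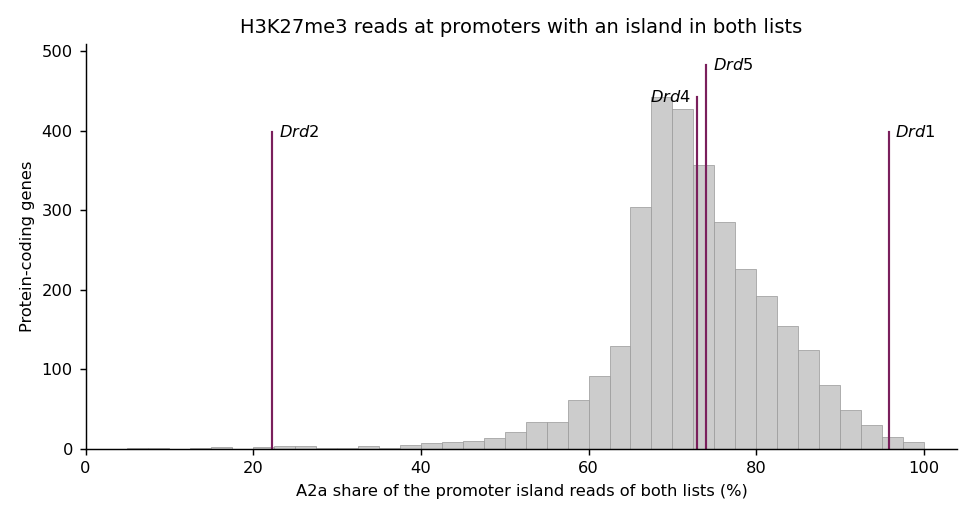
Number of protein-coding genes by the A2a share of the promoter island reads of both lists (%), in bins of 2.5 points over 3132 genes with islands in both (grey), with lines at the 4 receptor genes, whose heights carry no value. *Drd2* is at 22.3%, *Drd4* at 73.0%, *Drd5* at 74.0% and *Drd1* at 95.8%, around a median of 72.2%.

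The order of the receptor genes differed between the marks. By reads, the promoter island of *Drd5* was at percentiles 99.99 in A2a and 99.97 in D1, followed in A2a by *Drd1* at 98.3, *Drd4* at 74.1 and *Drd2* at 31.5, and in D1 by *Drd2* at 96.4, *Drd4* at 64.0 and *Drd1* at 35.4. By −log10 q, the promoter peak ranked highest at *Drd2* in A2a and at *Drd1* in D1. By fold enrichment it ranked highest at *Drd3* in both lists, at percentiles 40.8 and 29.7. The lists are not scaled to each other, so a percentile places a gene among the peaks of its own list and gives no level to compare across lists.

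**Figure D5:**
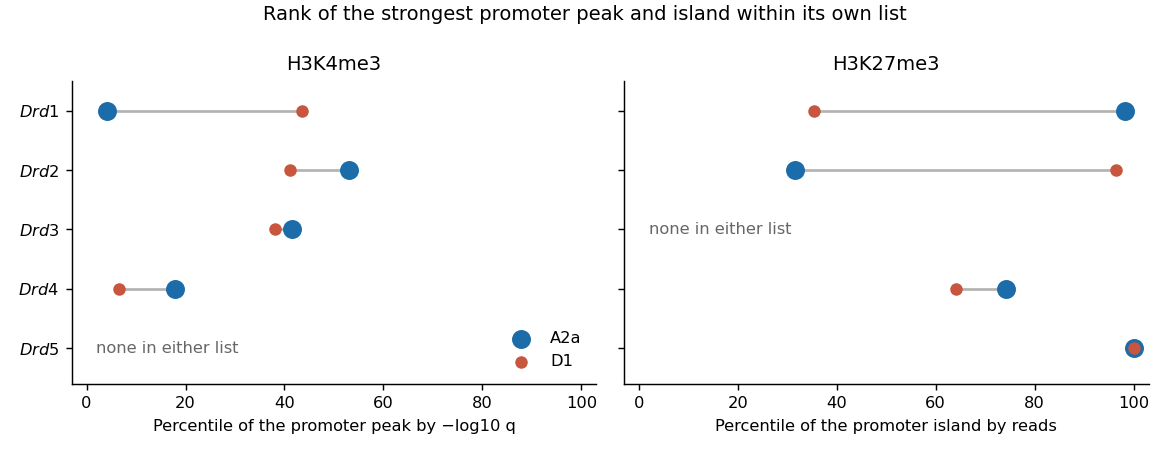
Percentile of the strongest promoter H3K4me3 peak by −log10 q (left) and of the strongest promoter H3K27me3 island by reads (right) within its own list, for A2a (blue) and D1 (red), joined by a line for each gene. The A2a and D1 points are far apart for H3K27me3 at *Drd1* (98.3 and 35.4) and *Drd2* (31.5 and 96.4) and overlap at *Drd5*.

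The protein-coding genes most like each receptor gene were taken as the 3 at the smallest Euclidean distance over the 4 promoter percentiles, with 0 where a list held nothing. For *Drd1* these were *Ebf1*, a transcription factor gene, at a distance of 26.7, *Dscam* at 28.5 and *Apob* at 36.2, so no gene had a closely similar set of values. The nearest to *Drd2* were *Slitrk6* at 15.5 and *Penk*, the enkephalin precursor of A2a MSNs, at 16.3. *Drd4* was nearest to *Efna1* at 5.91 and *Cabp7* at 6.93. *Drd3* had close neighbours in *4931414P19Rik* at 0.309, *Gpaa1* at 0.337 and *Aga* at 0.640, all with H3K4me3 alone. *Drd5* was nearest to *Otop1*, which shares its island, and to the developmental transcription factor genes *Pax3* at 0.0132 and *Zic1* at 0.0137.

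Genes of dopamine synthesis, transport and breakdown were read at their promoters in the same way. Of 10 genes, 5 had H3K4me3 in A2a and 4 in D1, against 58.2% and 55.7% of all coding genes, and 3 had H3K27me3 in each list. *Gch1*, which makes the cofactor of tyrosine hydroxylase, had an island only in A2a (29.6 kb, 2670 reads), and *Dbh*, which turns dopamine into noradrenaline, only in D1 (4.6 kb, 173 reads). The 3 genes with an island are set against 21.7% of all coding genes in A2a and 15.3% in D1, a small difference for a list of 10.

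Genes of receptor signalling, such as G protein subunits, adenylyl cyclase, DARPP-32 and the regulators of receptor activity, were counted too. Of 31 genes, 29 had H3K4me3 in each list, where 58.2% of all coding genes had it in A2a and 55.7% in D1. H3K27me3 was found at 3 of them in A2a, against 21.7% of all coding genes, and at 2 in D1, against 15.3%. *Gnal*, the Golf subunit through which D1 receptors act in the striatum, had an island in A2a alone, of 2.2 kb with 135 reads. The difference of these counts from those of the receptor genes was not tested.

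The other aminergic receptors, those of serotonin, noradrenaline, acetylcholine, histamine and trace amines, form a further list of 31 genes. H3K4me3 was found at 23 of them in A2a and 22 in D1, against 58.2% and 55.7% of all coding genes. H3K27me3 was found at 21 in A2a and 12 in D1, against 21.7% and 15.3%, and both marks at 15 and 9, against 9.54% and 5.57%. Islands in A2a alone were found at 9 of them and in D1 alone at 0, whereas each dopamine receptor gene with an island had one in both lists. The 9 were *Adra1a*, *Adra1b*, *Chrm4*, *Hrh1*, *Hrh4*, *Htr1b*, *Htr1f*, *Htr2c* and *Taar1*. Among them, *Chrm4*, the muscarinic receptor known from D1 MSNs, had A2a promoter islands that summed to 7.60 kb and 652 reads. Of the 4972 coding genes with a promoter island in either list, 3132 had one in both, 1620 in A2a alone and 220 in D1 alone. The lists were thus unequal in this way for genes in general, and an island in both lists was the most common case.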

How the data were processed

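H3K4me3 (Abcam antibody) and H3K27me3 (Active Motif antibody) CnR libraries of A2a and D1 nuclei were analysed, with 2 replicates pooled in each of 4 deposited lists. The other 20 samples were not analysed here. The D1 H3K27me3 samples were grouped by title and cell type, against their source name.

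Alignment by the authors was to mm10 with bowtie2 (version 2.1.0). Reads of a mapping quality of at least 20 were kept, Picard (version 2.23.4) took out duplicates, and insert sizes were limited to 150 to 500 bp. For H3K4me3 the authors used MACS2 (version 2.2.7.1) with q at 0.01, whose deposited values are fold enrichment, a ratio to the local background, and −log10 q. For H3K27me3 they used SICER (version 2.0), where windows were of 200 bp, gaps of 600 bp and the false discovery rate 0.01, and the deposited value is an unscaled count of reads. The control for this step is not given in the sources used here. Fixed sizes, thresholds and the control set which short or weak regions are listed, with library totals not given in the sources used here.

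Genes came from GENCODE vM21 and coordinates count from 1. Percentiles are shares of the entries of a list at or below a value, by −log10 q for peaks and by reads for islands. Shares have exact binomial and counts exact Poisson intervals at the 95% level. The receptor genes, gene lists and rules were chosen with earlier results of these data known. Named genes are the 5 receptors, list genes with an island in exactly 1 cell type, neighbours within 50 kb with a promoter peak or island, and the 3 most alike genes, some of which are not reported here. Others are said in the text to be chosen after their values were seen, and cell type markers follow a list of their own. The lookups were tested on simulated data. Scripts ran in Python 3.11.15 with numpy 2.4.6, scipy 1.17.1 and, for plots, matplotlib 3.10.9. Alternatives changed the promoter window, flanks, TSS, overlap, thresholds, list sizes, merging and ranking.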

Additional observations from a re-analysis of the deposited data

How the results depend on the processing

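In all, 110 alternatives over 28 results were computed. The A2a share of reads stayed above that of all islands at *Drd1*, and below it at *Drd2*, under each alternative run for that share. The share at *Drd1* was 91.8% within 5 kb of the TSS, 100% with islands of at least 2000 bp, since the D1 island is shorter, and 85.0% with reads scaled to the window. The share at *Drd2* was 2.28% with islands within 5 kb merged and 33.7% with scaled reads. The share at *Drd5* was 69.2% with merged islands, below that of all islands, and 65.9% with scaled reads. The share of all islands counts whole islands and no scaled counterpart was computed, so it is not a like reference for scaled shares. At *Drd5* the scaled share follows island density, which was 1.92 times the list mean in A2a and 1.70 times in D1. The counts of receptor genes with a mark changed by at most 1 gene. Of the alternatives for covered shares and peak percentiles, 25 gave a value outside the interval computed at the main setting and 13 did not. Most of the 25 changed the width of the flanks or the ranking of peaks. The interval took stretches of sequence or list entries as independent trials, which they are not, so it gives no counting error for these values. Whether these values moved beyond their error was not tested.

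*Drd3* gave no share under any alternative, as no island met its promoter. No paired analysis was possible because each list pools its replicates, and leaving out a replicate was not possible for the same reason. The study states its depth as a range over samples, with library totals not given in the sources used here, so an absent peak or island was not detected at this depth and is not shown to be absent.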
